A study of Mus musculus with 12 samples.

Results

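Resting macrophages given the STING inhibitor C-178, with no STING agonist on either side, were compared with macrophages left without stimulation. The comparison takes in 6 of the 12 messenger RNA libraries of the study, 3 with C-178 and 3 unstimulated, chosen by the headings of the columns that hold them. All libraries came from primary bone marrow derived macrophages of wild-type C57Bl/6 mice at passage 1. The study's other libraries, 3 with CMA, which activates mouse STING directly, and 3 with C-178 plus CMA, are used below to see what the same genes did when the inhibitor met the agonist. Treatment lasted 2 h in each treated group, and no dose of C-178 is stated in the labels. The labels do not say whether the libraries of a group came from separate cultures or animals, so the p-values measure only the spread between these libraries. Of the unstimulated libraries, 2 share a column heading, and they are called a and b beside number 1.

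STING is the membrane adaptor that passes on the sensing of cytosolic DNA: cGAS makes the messenger cGAMP, STING binds it, moves to the Golgi, is palmitoylated there and recruits TBK1, which activates IRF3 and drives interferon genes. C-178 is a covalent compound that attaches to a cysteine of mouse STING that is used for this palmitoylation. A cell also holds a general sensor of cysteine-reactive compounds, KEAP1. When its cysteines are modified, the transcription factor NRF2 (gene Nfe2l2) escapes degradation and, with small MAF partners, raises genes for glutathione synthesis, thioredoxin reduction, NADPH supply, drug conjugation, heme breakdown and iron export. In macrophages this programme also includes heme oxygenase 1 and the iron exporter ferroportin, which serve the recycling of iron from engulfed red cells.

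Reads recovered from the table numbered 13907175, 17449422 and 16167699 in the unstimulated libraries and 28476438, 7144793 and 7049454 with C-178. The authors scaled the libraries to like totals, but the deeper C-178 library 1 still had a read in more genes (14700) than libraries 2 and 3 (13366 and 13320). The extraction protocol names MEF (embryonic fibroblasts) where the sample labels name macrophages, so marker genes were examined. The 11 macrophage markers found in the table summed to 358636 to 378423 normalised counts without stimulation and 365453 to 402024 with C-178, and Csf1r, the receptor for the growth factor M-CSF, stood between 30474 and 34758 in all 6 libraries. The erythroid markers Hba-a1, Hbb-bs, Alas2 and Slc4a1 were listed at 0 in all 6 libraries. The 14 fibroblast markers were present at low levels, and their sum moved with the comparison, from 1683 to 1771 normalised counts without stimulation to 1996 to 2376 with C-178. Of the 13 tested, 11 lay above 0 (median log2 change 0.34) and 0 had an unadjusted p under 0.05 by limma. Without overlap 4 lay higher (30.8%, against 7.87% of all genes) and 0 lower (against 7.68%). The marker Lum was at 0 to 1.51 in all 6 libraries. The part of these cells in the results below was not tested. In bulk RNA, a change in the number of cells of a type and a change in RNA per cell cannot be told apart.

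Limma called 11 genes higher with C-178 out of 11440 tested (0.0962%), at an adjusted p under 0.05, and 0 lower. The 11 were, in order of change, Ednrb, Hmox1, Nanos1, Slc40a1, Txnrd1, Gclc, Srxn1, Gsr, A530064D06Rik, B430306N03Rik and Gclm. For each, all 3 C-178 libraries lay above all 3 unstimulated libraries, as they did for 900 of all genes tested (7.87%). By role, 3 of the 11 make or recycle glutathione, 2 serve the thioredoxin system, and 2 handle heme and iron. The other 4 were on no list of NRF2 targets used here. For a single gene with 3 libraries a group, an exact permutation test cannot give a p below 0.1, so the calls rest on a fit that shares its spread over groups and genes.

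**Figure D1:**
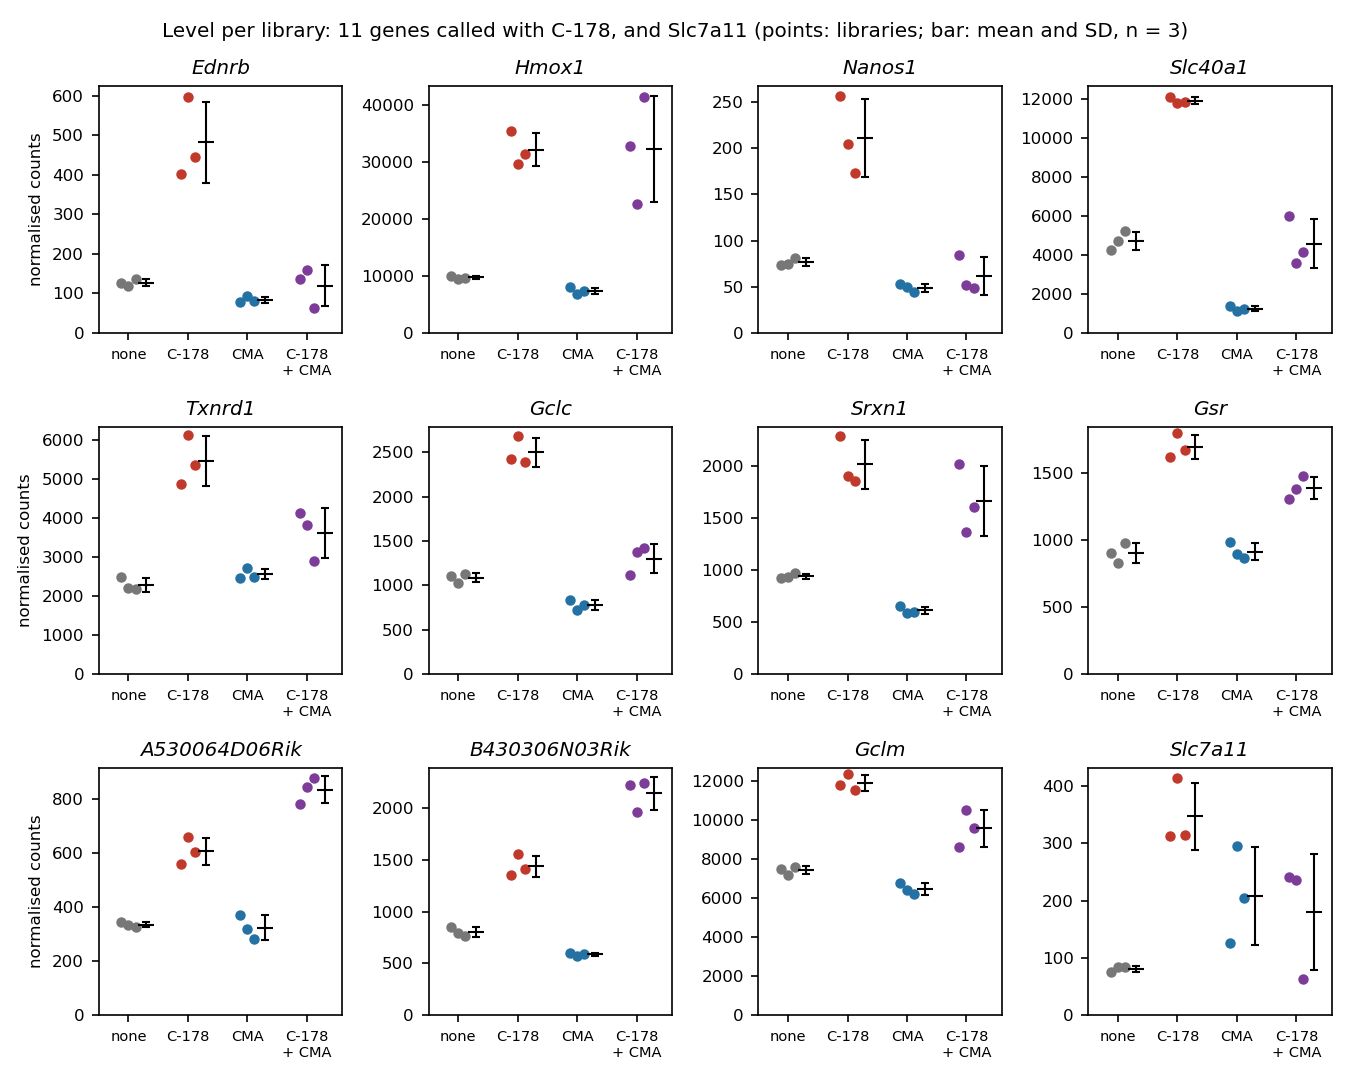
Normalised counts (vertical axis, from 0) in each library of the 4 groups for the 11 genes called with C-178 and for Slc7a11; points are libraries, the bar is the mean and SD of 3. For every gene shown, the 3 C-178 libraries sit above the 3 unstimulated ones; Hmox1 reaches 29685 to 35380 against 9567 to 10027.

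The glutathione genes give the most complete view of a single pathway. Gclc encodes the catalytic subunit of glutamate-cysteine ligase, which joins glutamate to cysteine as the opening step towards glutathione (chr9:77754535-77794485, plus strand, mm10). Its unstimulated libraries held 1109, 1029 and 1127 normalised counts and its C-178 libraries 2430, 2689 and 2389. The lowest C-178 library thus lay far above the highest unstimulated one, and the means were 1088 ± 52.2 and 2503 ± 163 (SD, n = 3), 2.30-fold higher (log2 change 1.20 ± 0.12, limma adjusted p = 0.00133). Here and below, the ± after a log2 change is the SE from limma's fit of all 12 libraries. It therefore also carries the spread of the groups given CMA. Gclm encodes the modifier subunit of the same enzyme (chr3:122245557-122270732, plus strand). It stood at 7469, 7176 and 7571 without stimulation and at 11774, 12340 and 11511 with C-178. The groups were far apart for their spread, but the change was the smallest of the 11, 1.60-fold (0.68 ± 0.11, adjusted p = 0.0333). Gsr, glutathione reductase, which returns oxidised glutathione to its reduced form (chr8:33652523-33698163, plus strand), went from 900.1, 830 and 978 to 1619, 1792 and 1668. That is 1.88-fold (0.91 ± 0.11, adjusted p = 0.00373), with little scatter in either group.

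Slc7a11, the cystine importer that supplies cysteine for glutathione, had the largest change of any gene on the NRF2 lists and was not called. It read 75.3, 83.6 and 83.5 normalised counts without stimulation and 313, 414 and 314 with C-178. The 6 libraries were well apart, 4.29-fold on the means (log2 change 2.08 ± 0.42), yet the adjusted p was 0.143. Its libraries with CMA (125, 296 and 204) and with C-178 plus CMA (241, 236 and 62.7) scattered widely, and the limma fit shares a gene's spread over all 12 libraries. With only the 6 libraries compared, limma gave it an adjusted p of 0.00022. Of the other tested members of this role, glutathione synthetase Gss stood at 0.31 ± 0.20, and the glutathione peroxidases Gpx1 and Gpx4 lay below 0.

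In the thioredoxin system, Txnrd1 encodes the cytosolic reductase that recharges thioredoxin (chr10:82833951-82897712, plus strand). Its unstimulated libraries stood at 2496, 2203 and 2170 normalised counts and its C-178 libraries at 4863, 6122 and 5354. The C-178 libraries differed among themselves more than the others did, but each lay far above the highest unstimulated one, 2.38-fold on the means (1.25 ± 0.14, adjusted p = 0.00229). Srxn1 encodes sulfiredoxin, which repairs over-oxidised peroxiredoxins (chr2:152105516-152111376, plus strand). It went from 927, 932 and 971 to 2295, 1905 and 1860, with library 1 highest, or 2.14-fold (1.09 ± 0.14, adjusted p = 0.00464). The peroxiredoxins themselves stood less far apart: Prdx1 at 0.43 ± 0.19 (10045, 10138 and 11757 against 16214, 12946 and 13872) and Prdx6 at 0.33 ± 0.16. Neither was called. Thioredoxin itself, Txn1, lay at -0.01 ± 0.30.

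Heme breakdown and iron export held the called gene with the highest level. Hmox1, which opens the heme ring and frees its iron (chr8:75093621-75100589, plus strand), had 10027, 9567 and 9676 normalised counts without stimulation and 35379.8, 29685 and 31411 with C-178. The unstimulated libraries agreed closely, and the C-178 libraries were 3.30-fold higher (1.72 ± 0.18, adjusted p = 0.00133). Slc40a1, ferroportin, the only known exporter of iron from cells (chr1:45908068-45926523, minus strand), went from 4273, 4724 and 5220 to 12136, 11788 and 11881. The C-178 libraries nearly coincided, 2.52-fold above the unstimulated mean (1.34 ± 0.17, adjusted p = 0.00373). Genes next to them in the same path were not called: the heme transporter genes Slc48a1 (0.42 ± 0.18) and Abcb6 (0.48 ± 0.13) stood higher without overlap, while the ferritin subunits Fth1 (-0.22 ± 0.24) and Ftl1 (0.03 ± 0.23), biliverdin reductase A Blvra (-0.08 ± 0.15) and Hmox2 (-0.23 ± 0.12) did not. Of the 14 tested genes for iron uptake, storage and export, Slc40a1 was the only one called, the median was 0.05, and without overlap 1 member lay higher (7.14%, against 7.87% of all genes) and 2 lower (14.3%, against 7.68%). Ferritin genes have many processed copies in the mouse genome, and no source used here says how reads shared with such copies were counted. The same holds for reads shared by overlapping genes: Txnrd1 overlaps the protein-coding gene Eid3 on its own strand, and Gclm a transcribed pseudogene.

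The remaining 4 called genes have no NRF2 role on the lists used here. Ednrb encodes endothelin receptor B (chr14:103814625-103844402, minus strand) and had the largest change of the 11: 127, 118 and 136 normalised counts without stimulation against 402, 598 and 446 with C-178. The C-178 libraries spread more than those of most called genes, at 3.80-fold on the means (1.90 ± 0.28, adjusted p = 0.0136). Nanos1, an RNA-binding repressor of translation known from germ cells (chr19:60755987-60759914, plus strand), went from 73.7, 74.6 and 81.6 to 256, 205 and 173, or 2.76-fold (1.43 ± 0.22, adjusted p = 0.0185). The last pair carry only clone-derived names, and both are annotated as protein-coding. A530064D06Rik (chr17:48149126-48167275, minus strand) stood at 343, 334 and 328 against 558, 658 and 603, or 1.81-fold (0.85 ± 0.13, adjusted p = 0.0156). B430306N03Rik (chr17:48316141-48327024, plus strand) stood at 855, 795 and 765 against 1351, 1552 and 1409, or 1.79-fold (0.83 ± 0.11, adjusted p = 0.00464).

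RefSeq lists Trem4 among the synonyms of A530064D06Rik and Treml6 for B430306N03Rik, and both lie in the Trem cluster on chromosome 17, a run of genes for triggering receptors of myeloid cells. Their neighbours there were looked at after these values were seen. Treml4, which lies between them, read 455, 387 and 335 without stimulation and 484, 652 and 533 with C-178 (0.50 ± 0.19, adjusted p = 1.0, unadjusted p = 0.018). Trem2, the lipid-sensing receptor of macrophages, was at 3122, 2988 and 3143 against 3345, 2894 and 3323 (0.04 ± 0.18). Treml2 (0.09 ± 0.17), Trem1 (0.63 ± 0.43, at 14.9 to 44.8 normalised counts) and Treml1 (0.37 ± 0.56) were not called either. The called pair and these 5 are all the tested members of the cluster that the annotation names Trem or that carry such a synonym.

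The wider NRF2 list lay mostly above 0, with smaller changes than the called members. Of 80 genes listed in 7 roles, 69 were tested, 7 were called higher and 0 lower, against 0.0962% of all genes. The groups did not overlap for 35 of the 69 with C-178 above (50.7%, against 7.87% of all genes) and for 1 with C-178 below (against 7.68%). The median log2 change over the 69 was 0.31, against -0.01 over all genes tested, and 52 lay above 0. At an unadjusted limma p under 0.05, 25 were higher and 0 lower, against 2.08% and 1.59% of all genes. The members were chosen with earlier results of these data known.

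**Figure D2:**
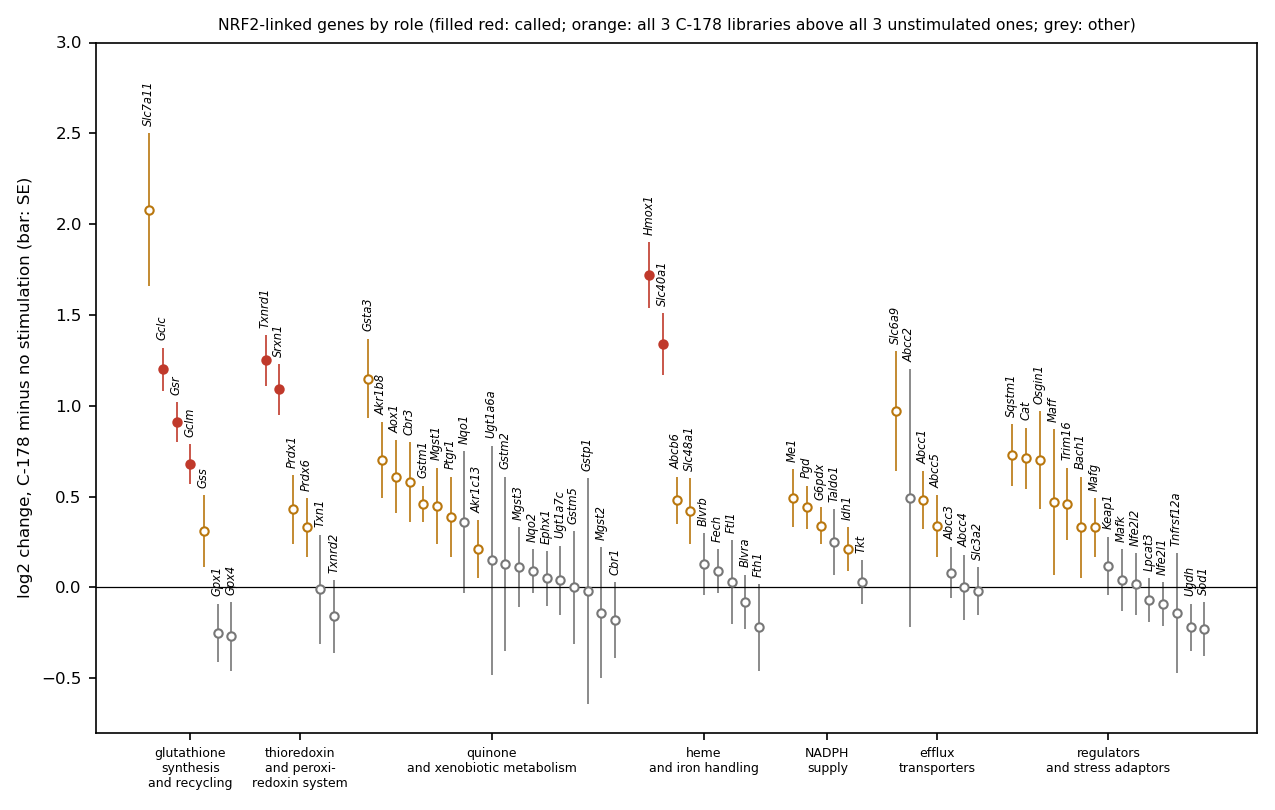
Log2 change with C-178 (vertical axis, with SE) for the 69 tested NRF2-linked genes, grouped by role along the horizontal axis; filled red points are called, orange open points have all 3 C-178 libraries above all 3 unstimulated ones, grey points neither. The called genes sit in 3 of the 7 roles, and Slc7a11 stands highest at 2.08 with a wide SE of 0.42.

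By role, the medians ran from high to low as follows. The 7 tested glutathione genes had a median of 0.68 and the 6 of the thioredoxin system 0.38, against 0.34 for the 7 efflux transporters, 0.30 for the 6 NADPH genes, 0.15 for the 19 genes of quinone and xenobiotic metabolism, 0.13 for the 9 of heme and iron handling and 0.12 for the 15 regulators and stress adaptors. Differences between roles were not tested, and the lower medians moved with the processing. With the length and GC trend removed they were 0.26 for quinone and xenobiotic metabolism, 0.24 for heme and iron, 0.20 for regulators and 0.39 for NADPH genes, above the 0.30 of efflux transporters. Without C-178 library 2 they were 0.24 for heme and iron and 0.06 for regulators. All 6 NADPH genes lay above 0, among them Pgd (0.44 ± 0.12) and G6pdx (0.34 ± 0.10) of the pentose phosphate pathway and malic enzyme Me1 (0.49 ± 0.16), and 0 of them was called by limma with all 12 libraries. Pgd read 9607, 8841 and 8915 without stimulation and 10829, 13518 and 12908 with C-178, and was called by DESeq2 (adjusted p = 0.0102).

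Among the conjugating and reducing enzymes, the glutathione transferase gene Gsta3 had the largest change, from 60.8, 60.3 and 57.6 normalised counts to 128, 132.5 and 139.5. Its 2 groups were tight and far apart (1.15 ± 0.22), with an adjusted p of 0.104 in the fit of 12 libraries and 0.00471 with the 6 libraries compared. Gstm1 (0.46 ± 0.10), Akr1b8 (0.70 ± 0.21), Aox1 (0.61 ± 0.20) and Cbr3 (0.58 ± 0.22) stood higher without overlap and were not called. Glutathione transferases and aldo-keto reductases form families of near-identical genes, so reads may be split between relatives. Nqo1, the quinone reductase often used as a marker of NRF2 activity, was low and scattered, at 35, 33.4 and 35.4 against 62, 30.1 and 47.9 (0.36 ± 0.39, adjusted p = 1.0).

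For Nfe2l2 and Keap1, the genes of the NRF2 switch itself, the differences in RNA were within their SE. Nfe2l2 stood at 4010, 3905 and 4196 against 3682, 4521 and 4076 (0.02 ± 0.17), and Keap1 at 0.12 ± 0.16. Both pairs of groups overlapped. Bach1, the heme-sensitive repressor that competes with NRF2, was at 0.33 ± 0.28 and the small MAF gene Mafg at 0.33 ± 0.16, without overlap and without a call. Sqstm1, the p62 adaptor that draws KEAP1 into autophagy, read 4963, 5098 and 4802 against 9067, 7284 and 8330 (0.73 ± 0.17, adjusted p = 0.3, and 0.0154 with the 6 libraries compared). Catalase Cat (0.71 ± 0.17), Osgin1 (0.70 ± 0.27) and Trim16 (0.46 ± 0.20) also stood higher in all 3 libraries.

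The antioxidant response element that NRF2 and MAF proteins bind has the core TGACNNNGC, and it was sought on both strands of promoter windows from RefSeq (build GRCm38.p6), each running from 250 bases before to 50 bases after a start of transcription. Among called genes, 7 of 11 had a window, with 9 windows in all, and 4 of these held the core (44.4%), in Txnrd1, Srxn1, Nanos1 and Gclm. Hmox1, Slc40a1, Gclc and Gsr had no window and were not searched. Of all windows, 12.4% held it, and over those of the genes tested 14.6%. Of NRF2 targets higher at an unadjusted p under 0.05 the share was 10 of 25 windows, and of the other tested NRF2 targets 8 of 43. These shares are descriptions and a match is not a measured site. The windows of Ednrb, A530064D06Rik and B430306N03Rik held no match to TGACNNNGC.

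The 250 bases before the start are printed for those 4 genes, 5′ to 3′ on the gene's strand, because they are the called genes whose windows carry the core. Capitals mark TGACNNNGC, which reads as its reverse complement here since all 4 matches are on the opposite strand. In Srxn1 that match lies 28 bases past the start, so its capitals mark instead 2 matches to the related core TGAGNNNGC, which was sought after the sequences were seen and is found in 17.6% of all windows. Among called genes 2 of 9 windows held this related core (22.2%), those of Srxn1 and A530064D06Rik, near the 19.9% of windows of genes tested. The stretches are chr10:82858956-82859205 for Txnrd1 (1 of its 3 windows, at a start inside the annotated gene), chr2:152105274-152105523 for Srxn1, chr19:60755737-60755986 for Nanos1 and chr3:122245307-122245556 for Gclm, all on the plus strand.
Txnrd1: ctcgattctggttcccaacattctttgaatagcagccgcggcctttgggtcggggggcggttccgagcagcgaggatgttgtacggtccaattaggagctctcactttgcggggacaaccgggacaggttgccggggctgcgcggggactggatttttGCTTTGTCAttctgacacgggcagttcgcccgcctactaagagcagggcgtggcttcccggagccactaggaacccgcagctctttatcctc
Srxn1: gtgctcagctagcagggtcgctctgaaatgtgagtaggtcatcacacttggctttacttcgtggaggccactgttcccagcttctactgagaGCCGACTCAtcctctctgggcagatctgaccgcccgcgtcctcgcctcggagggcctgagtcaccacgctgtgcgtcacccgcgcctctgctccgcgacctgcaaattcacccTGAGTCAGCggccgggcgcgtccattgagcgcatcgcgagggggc
Nanos1: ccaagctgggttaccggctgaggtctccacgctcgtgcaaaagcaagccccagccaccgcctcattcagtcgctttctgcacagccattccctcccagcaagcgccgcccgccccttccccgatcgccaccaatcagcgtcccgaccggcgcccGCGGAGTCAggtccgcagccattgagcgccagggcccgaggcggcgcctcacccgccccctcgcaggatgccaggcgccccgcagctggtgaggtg
Gclm: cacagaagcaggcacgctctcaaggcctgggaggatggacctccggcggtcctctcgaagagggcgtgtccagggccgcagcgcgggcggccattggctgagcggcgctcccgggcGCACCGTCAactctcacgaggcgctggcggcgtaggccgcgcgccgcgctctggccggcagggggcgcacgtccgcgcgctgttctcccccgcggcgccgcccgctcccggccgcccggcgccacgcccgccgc

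To compare the cores themselves, the match with 8 bases to each side is given in the direction of the core. It is printed for the 4 called genes and for 4 of the NRF2 targets that stood higher without a call. G6pdx and Slc6a9, also uncalled and higher at an unadjusted limma p under 0.05, hold the core too and are not printed. The core is in capitals, and the 3 free bases and the flanks can be read across genes.
Txnrd1: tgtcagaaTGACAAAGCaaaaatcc
Srxn1: tctcactcTGACCTAGCtgcccact
Nanos1: tgcggaccTGACTCCGCgggcgccg
Gclm: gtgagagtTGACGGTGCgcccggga
Gsta3: ctcaggcaTGACATTGCatttttct
Pgd: ttcagagcTGACATTGCactgatcg
Me1: tgccgccgTGACTCAGCgcttctcg
Prdx1: acgggggaTGACTCAGCgctttccc
Among the genes printed, Me1 and Prdx1 share 1 core, and so do Gsta3 and Pgd, while the cores of the 4 called genes all differ. The stretches lie at chr10:82859106-82859130 (minus strand), chr2:152105544-152105568 (minus), chr19:60755883-60755907 (minus), chr3:122245415-122245439 (minus), chr1:21240456-21240480 (plus), chr4:149166063-149166087 (minus), chr9:86695904-86695928 (minus) and chr4:116685458-116685482 (minus), in the order printed.

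Beyond the NRF2 genes, the 10 largest changes upward that missed the call were Slc7a11 and Gsta3 (above), Panx1, Jag1, Slc16a9, Lrp8, Tshz1, Dnajb4, Slc22a4 and Procr. They were taken from 169 uncalled genes that were higher with an unadjusted p under 0.05, groups apart and a mean of at least 100 normalised counts in the higher group. Panx1, which forms channels that release ATP, read 141, 160 and 177 against 476, 388.5 and 308 (1.27 ± 0.26, adjusted p = 0.153). Jag1, a Notch ligand, read 86.7, 74.6 and 77.8 against 186, 238 and 160 (1.26 ± 0.27, adjusted p = 0.19). In both genes the lowest C-178 library stood well above the highest unstimulated one. Slc22a4 encodes a carrier of the antioxidant ergothioneine (0.84 ± 0.18), Lrp8 a receptor of the LDL receptor family (0.97 ± 0.17, adjusted p = 0.067), and Dnajb4 a heat shock protein 40 co-chaperone (0.90 ± 0.19).

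By limma with all 12 libraries 0 genes were lower, while 182 were lower at an unadjusted p under 0.05 (1.59% of those tested, against 2.08% higher). Fam43a was the only gene that edgeR called lower (0.00874%), DESeq2 called Fam43a, Asb2, Ndrg1 and Pim2 (0.035%), and limma on the 6 libraries called Fam43a, Ndrg1, Pim2 and Tagap (0.035%). Ndrg1, a stress-responsive gene that is also induced by hypoxia and by iron chelation, had the most reads of these. It stood at 4496, 4348 and 3888 normalised counts without stimulation and at 2281, 2689 and 2682 with C-178 (log2 change -0.74 ± 0.14, adjusted p = 0.106, and 0.0151 with the 6 libraries). Fam43a went from 243, 241 and 189 to 105, 67.8 and 116 (-1.24 ± 0.24, adjusted p = 0.107). Pim2, a survival kinase, stood at 890, 881 and 757 against 564, 486 and 535 (-0.67 ± 0.16). The groups of these 3 genes did not overlap. Other members of the 10 largest changes downward were Asb2 (-0.98 ± 0.20), a substrate adaptor of a ubiquitin ligase, Rasgrp1 (-0.78 ± 0.31), Relt (-0.75 ± 0.32), Tnfrsf13b (-0.64 ± 0.24), Mrps36 (-0.93 ± 0.36) and Il10 (-0.63 ± 0.21), which encodes an anti-inflammatory cytokine.

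**Figure D3:**
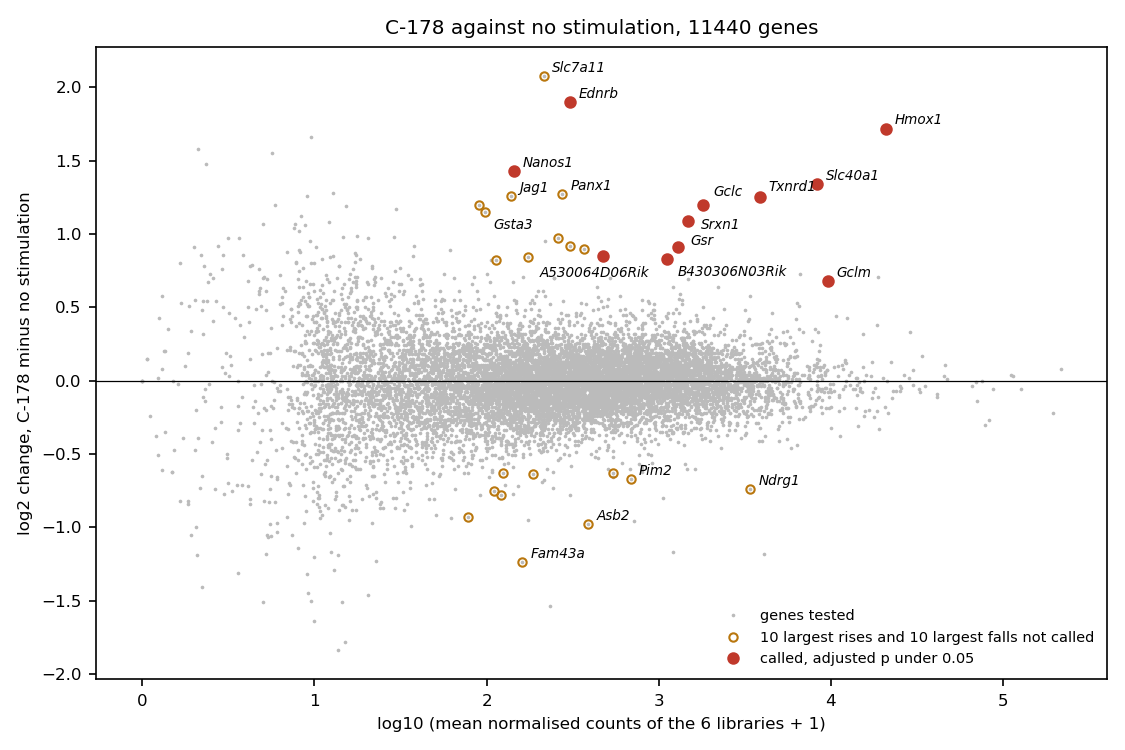
Log2 change with C-178 (vertical axis) against the mean level of the 6 libraries on a log10 scale (horizontal axis) for the 11440 genes tested; filled red points are the 11 called genes, open orange points the 10 largest changes in each direction that met the naming rule without a call. All called genes lie above 0, and Hmox1 (1.72) and Slc40a1 (1.34) combine a large change with a high level.

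For genes of the pathway that C-178 targets, no difference in resting cells passed the test. Of the 22 tested STING pathway genes 0 were called by limma and the median was -0.10. At an unadjusted p under 0.05, 1 was lower (against 1.59% of all genes). Tmem173, the gene for STING, stood at 550, 670 and 652 normalised counts against 594, 479 and 478 (-0.27 ± 0.15, adjusted p = 1.0), and the groups overlapped. C-178 acts on the protein, so this RNA is no check of the treatment. Trex1, which degrades cytosolic DNA (-0.31 ± 0.15), the sensor gene Mb21d1 (-0.14 ± 0.20), Tbk1 (0.11 ± 0.13) and Irf3 (-0.05 ± 0.14) were not called. Ifnb1, the interferon β gene, had 0 reads in each unstimulated library and 2 reads in each C-178 library, so no fold is given. Counts of this size carry wide counting error, and with CMA the same gene had 864 to 1120 reads. Of 48 interferon-stimulated genes 0 were called, 0 had an unadjusted p under 0.05, 3 lay lower without overlap (6.25%, against 7.68% of all genes), and the median was -0.09.

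Genes of cholesterol synthesis lay lower as a group, with 0 called by limma. Of 23 tested, 22 were below 0 and 17 had all 3 C-178 libraries below all 3 unstimulated ones (73.9%, against 7.68% of all genes). The median was -0.33, and 8 members were lower at an unadjusted limma p under 0.05 (against 1.59% of all genes). Fdft1, squalene synthase, stood at 508, 493 and 502 normalised counts against 379, 382 and 321 (-0.48 ± 0.14, adjusted p = 0.706). Msmo1 stood at 1582, 1536 and 1866 against 1325, 1301 and 1255 (-0.36 ± 0.11). Mvd (-0.50 ± 0.18) and Nsdhl (-0.33 ± 0.13) were also apart. Of the 12 tested targets of LXR, the receptor for oxysterols, 9 lay below 0, with a median of -0.12. Without overlap 3 were higher (25.0%, against 7.87% of all genes) and 3 lower (25.0%, against 7.68%). Mylip (0.55 ± 0.13) and the cholesterol exporter Abcg1 (0.31 ± 0.11) stood higher and Scd2 (-0.32 ± 0.11) lower, again with no call.

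NF-κB targets also lay mostly lower, with 0 of 28 called, a median of -0.17 and 9 lower without overlap (32.1%, against 7.68%). Cd40, the co-stimulatory receptor, read 47.9, 46 and 47.5 normalised counts against 23.3, 16.6 and 32 (-0.99 ± 0.30, adjusted p = 0.857). Bcl3 (-0.60 ± 0.19), the RNA-degrading regulator Zc3h12a (-0.35 ± 0.12) and the chemokine gene Ccl4 (-0.53 ± 0.22) had the next smallest p-values. Among cytokines and chemokines, 7 of 28 were lower (25.0%, against 7.68% of all genes) and 3 higher without overlap (10.7%, against 7.87%), with Ccl2 at 240, 240 and 225 against 219, 152 and 158 (-0.43 ± 0.14). In the antigen presentation list, 6 of 17 lay lower without overlap (35.3%), led by the class II regulator gene Ciita, at 8.72 to 32.7 normalised counts (-0.97 ± 0.35).

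**Figure D4:**
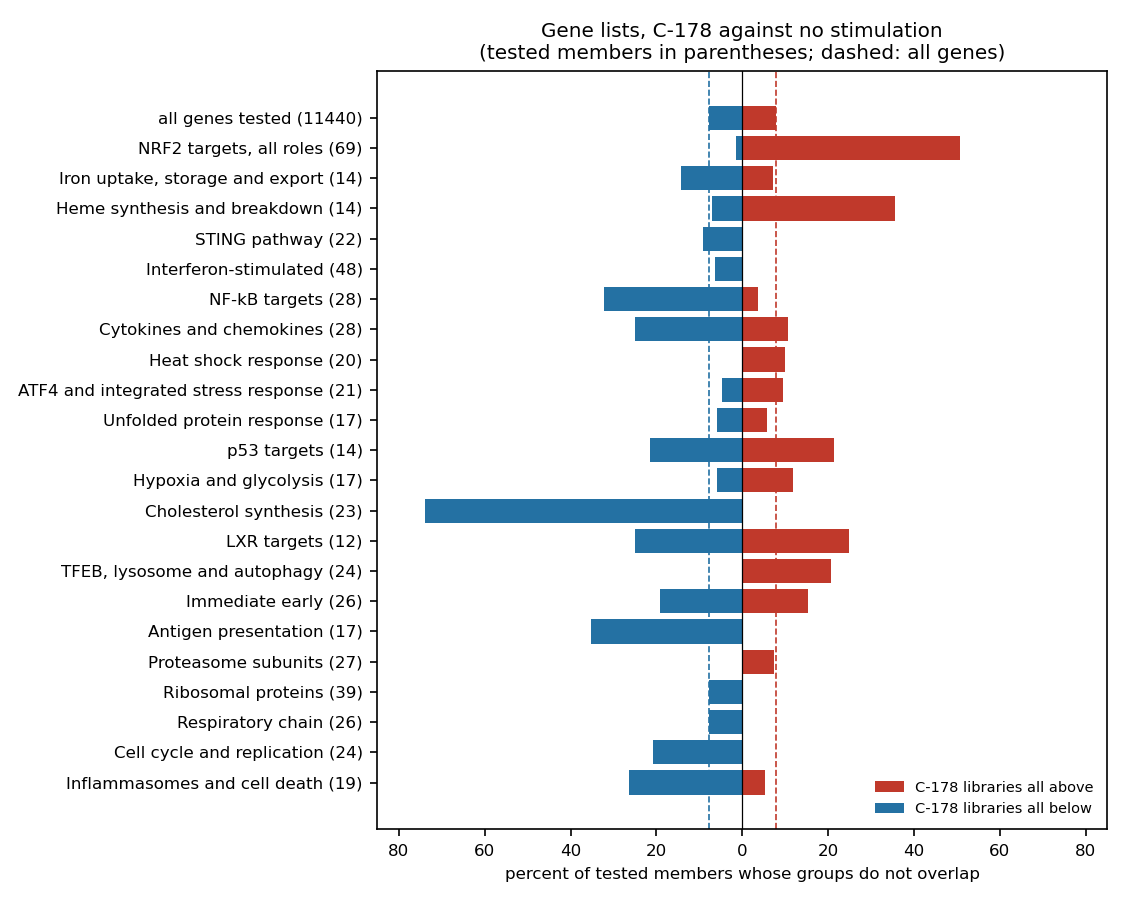
Share of tested members (horizontal axis, percent; number tested in parentheses) whose 3 C-178 libraries all lie above (red, right) or below (blue, left) the 3 unstimulated ones, for lists with at least 10 tested members; dashed lines give the shares of all genes, 7.87% and 7.68%. NRF2 targets reach 50.7% above, and cholesterol synthesis reaches 73.9% below.

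In other stress programmes the shares of members without overlap are read against 7.87% higher and 7.68% lower of all genes. Of 20 heat shock genes 2 were higher without overlap, near the share of all genes, and the median was 0.08, with Dnajb4 the furthest up and Hspa1a at 0.63 to 7.17 normalised counts throughout. The median was -0.02 for 21 genes of ATF4 and the integrated stress response, where Atf4 stood at 0.11 ± 0.21, Ddit3 at 0.07 ± 0.39 and Trib3 at 0.22 ± 0.43. It was 0.07 for 17 genes of the unfolded protein response and -0.05 for 14 p53 targets, of which 3 lay higher and 3 lower without overlap (21.4% each). Metallothioneins, which answer to zinc and other metals, did not stand apart (Mt1 -0.14 ± 0.16, Mt2 -0.17 ± 0.35), while the zinc exporter gene Slc30a1, at 398, 371 and 399 against 538, 547 and 484, was higher without a call (0.42 ± 0.16). Of 24 genes of lysosome and autophagy control, the median was 0.04, against -0.01 over all genes tested. Without overlap 5 were higher (20.8%) and 0 lower. Among the 5 were Sqstm1, which is also on the NRF2 list, Gabarapl1 (0.39 ± 0.15) and the transcription factor gene Mitf (0.40 ± 0.18).

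Transcript length and GC content moved with some of the smaller shifts, and their part in the results was not tested beyond the fits given here. Over 11362 genes, the log2 change had a Spearman correlation of 0.36 with transcript length and of -0.34 with GC content, given as a description, since all genes share the same 6 libraries. Against the unstimulated mean, C-178 library 2 had correlations of 0.42 with length and -0.41 with GC content, library 1 of 0.14 and 0.0, and library 3 of 0.11 and -0.21. Genes for ribosomal proteins (39 tested, 38 below 0) had a median of -0.17, and -0.04 with the length and GC trend removed. For 26 respiratory chain genes the pair of medians was -0.19 and -0.08, and for antigen presentation genes -0.14 and -0.05. The NRF2 list (0.31 and 0.30), the cholesterol list (-0.33 and -0.31) and the NF-κB list (-0.17 and -0.16) kept their medians.

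C-178 was also given together with CMA, in libraries that share none with the comparison of resting cells. In C-178 plus CMA against CMA, an effect of C-178 itself and a changed response to CMA cannot be told apart. All 11 had a log2 change above 0 in C-178 plus CMA against CMA (median 0.74), and 9 were called higher there, where 10.6% of all genes were. Same-numbered libraries with C-178, alone and with CMA, deviated together (correlations 0.45, 0.43 and 0.26 over genes), so the treated libraries of the 2 comparisons share part of their deviations. Hmox1 went from 8015, 6904 and 7375 normalised counts with CMA to 32762, 22692 and 41374 with both compounds (2.08 ± 0.18, adjusted p = 1.15e-05). Slc40a1 went from 1394, 1129 and 1241 to 6001, 3589.8 and 4142 (1.84 ± 0.17, adjusted p = 1.51e-05). Its libraries with both compounds spanned the range of the unstimulated ones, and those with CMA alone lay below it. Srxn1 (1.42 ± 0.14), Gclc (0.74 ± 0.12), Gsr (0.60 ± 0.11), Gclm (0.56 ± 0.11) and Txnrd1 (0.48 ± 0.14) were called as well.

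Of the pair of genes from the Trem cluster, B430306N03Rik changed more when CMA was present. It went from 597, 570.4 and 593 to 2226, 1959 and 2243 (1.86 ± 0.11, adjusted p = 4.79e-07), against 0.83 ± 0.11 in resting cells, and the difference of the effects was 1.03 ± 0.15 (limma adjusted p = 0.0023). A530064D06Rik changed by 1.37 ± 0.13 with CMA and 0.85 ± 0.13 without, and that difference was not called (0.52 ± 0.18, adjusted p = 0.0762). Ednrb and Nanos1 went the other way: their changes with CMA were 0.40 ± 0.28 and 0.29 ± 0.22, neither called, and the differences of -1.50 ± 0.39 and -1.14 ± 0.31 were (adjusted p = 0.0317 and 0.0364). Txnrd1 also differed, by -0.77 ± 0.20 (adjusted p = 0.0321). For 9.94% of all genes the 2 effects differed by this test, upward for 3.95% and downward for 5.99%. The called genes were chosen on the change in resting cells, which this difference subtracts, so their count of 4 cannot be read against these shares.

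**Figure D5:**
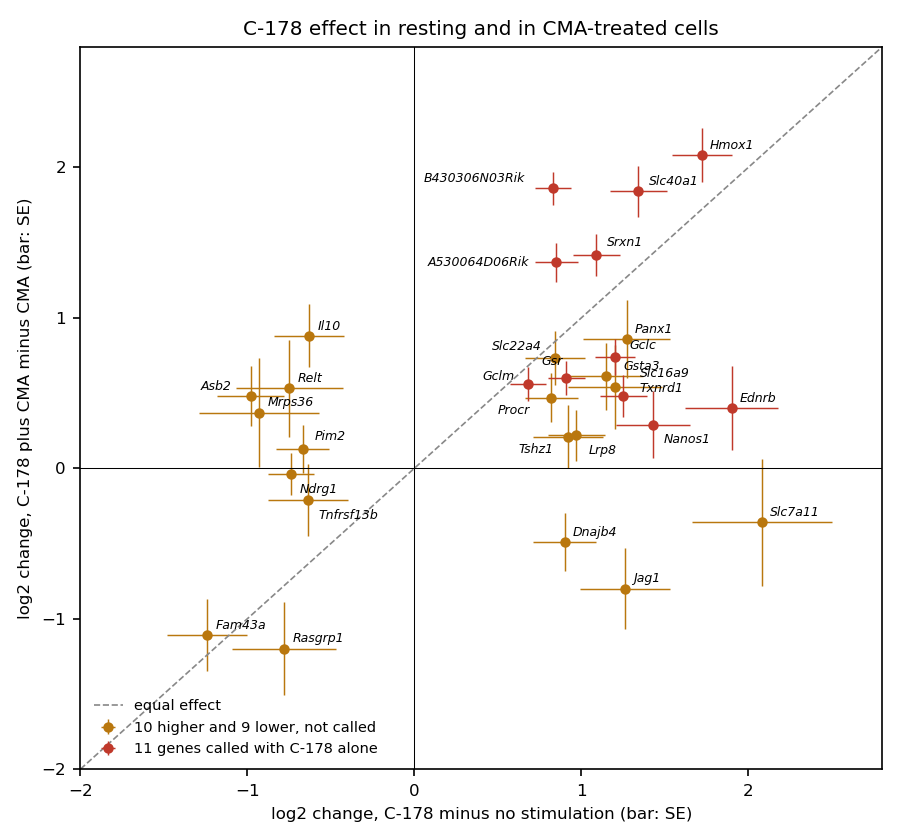
Log2 change of C-178 in resting cells (horizontal axis) and of C-178 plus CMA against CMA (vertical axis), with SE bars, for the 11 called genes (red) and the named uncalled genes, 10 that stood higher and 9 lower (orange); the dashed line marks equal effects. All red points lie above 0 on both axes, with Ednrb (0.40) and Nanos1 (0.29) nearest to 0 on the vertical one.

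Gene groups differed in how the effect with CMA compared. Of the 69 NRF2 targets, 22 were called higher and 2 lower in C-178 plus CMA against CMA (median 0.38), where 10.6% of all genes were called higher and 13.5% lower. Of the 23 cholesterol synthesis genes 7 were called lower (median -0.29), and of the 28 NF-κB targets 26 (median -1.41). Of the 27 genes called higher in resting cells with the 6 libraries alone, 22 were above 0 and 5 below with CMA. Of the 227 uncalled genes higher with C-178 alone at an unadjusted p under 0.05, 117 were above 0 and 110 below, and of the 182 lower ones 103 were above and 79 below, where 50.3% of all genes were above and 49.7% below. Jag1, Dnajb4 and Il10 are examples in which the sides were opposite: Jag1 was at 1.26 without and -0.80 with CMA, Dnajb4 at 0.90 and -0.49, and Il10 at -0.63 and 0.88.

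The calls depended on the processing and on which libraries entered the fit. Hmox1, Slc40a1, Txnrd1 and Gclc were called in all 25 alternatives run, with a highest adjusted p of 0.0189, 0.0445, 0.0317 and 0.0178. Without unstimulated library a, limma called 4 genes in place of 11, and Srxn1 (adjusted p = 0.0556), Gsr (0.0527), B430306N03Rik (0.057), A530064D06Rik (0.123), Ednrb (0.115), Nanos1 (0.135) and Gclm (0.355) were lost. With all libraries in, Gclm lost its call with the length and GC trend removed (0.57, limma adjusted p = 0.183) and with no filter on low values (0.109), and Nanos1 with no filter (0.0551) and with reads thinned to equal depth (0.0532). Limma called 7 without unstimulated library 1, 6 without library b and 7 without C-178 library 2. Without library 3 of C-178 plus CMA, the most scattered group (median SD of log2 values 0.34, against 0.115 and 0.179 in the groups compared), it called 24 genes higher and 5 lower, and 17 higher without library 1 of that group. With only the 6 libraries compared, 27 genes were called higher (0.236% of those tested) and 4 lower, the 27 holding all 11.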

How the data were processed

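Messenger RNA of mouse macrophages was sequenced in 4 groups of 3 libraries, prepared with a stranded kit per the labels' protocols. The submitters' processing notes name Bowtie2 2.2.1, limma 3.18.13 and build mm10 without saying what limma was used for; no source used here names the counter, the annotation or the strand setting. The deposited table gives a signal, gene counts that the authors divided by a factor for each library; a mean column and Cook's distances in the file headers are the form DESeq2 writes. The design had foreseen normalised values, and whole reads were recovered for 100% of values (tolerance 0.01). Its 12 columns of Cook's distances stayed out of every calculation.

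Of 24062 entries, 27 are named as dates, 23657 matched GENCODE M21 (GRCm38), and 0 are mitochondrial. A gene entered the tests when over 10 normalised counts were reached by 3 or more libraries (11440 genes). Tests ran on log2(value + 1) with limma 3.58.1 (trend, all 12 libraries, R 4.3.3) and Benjamini-Hochberg adjustment, calling an adjusted p under 0.05. Fold changes are on the log2(value + 1) scale in the text where called log2, and ratios of means where called fold. "Groups apart" or "without overlap" means that all 3 libraries of a group lie beyond all 3 of the other. Alternatives were another pseudocount, no filter, quantile normalisation, edgeR 4.0.16 and DESeq2 1.42.0 on recovered reads, the 6 libraries alone, array weights, each library thinned to 7049454 reads, a length and GC trend removed, and leaving out each library. Named genes were the called ones, the 10 largest uncalled changes each way (unadjusted p under 0.05, groups apart, mean of at least 100), fixed STING, NRF2 and stress genes, NRF2 targets, and up to 4 members of a list by p. A few items are not reported here. Some Trem genes were named after their values were seen. The members and the 40 gene lists were chosen with earlier results of these data known. The fits were also run on simulated data that gave a gene the same spread setting in every group. The real groups differ in spread, so that run is no check of how the 12-library fit handles unequal spread. Promoter sequences are from RefSeq, GRCm38.p6.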

Additional observations from a re-analysis of the deposited data

Results flagged for a closer look

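For 11 of the 31 genes followed, the C-178 effect with CMA differed from that without by limma's interaction test (adjusted p under 0.05), on 3 libraries a group. These genes were chosen for the size of their change with C-178 alone, which the difference subtracts, so the choice favours differences towards or past 0, the direction of 10 of the 11. The count is a description and is not set against the share of all genes. The effect was smaller or opposite with CMA for Ednrb (difference in log2 change -1.50 ± 0.39), Nanos1 (-1.14 ± 0.31), Txnrd1 (-0.77 ± 0.20), Slc7a11 (-2.44 ± 0.60), Jag1 (-2.06 ± 0.39) and Dnajb4 (-1.39 ± 0.27). It was larger with CMA for B430306N03Rik (1.03 ± 0.15). For genes that stood lower with C-178 alone, the difference was upward: Asb2 1.46 ± 0.29, Ndrg1 0.70 ± 0.20, Pim2 0.80 ± 0.22 and Il10 1.51 ± 0.30. Il10 stood at 396, 460 and 442 normalised counts with CMA and at 534, 899.6 and 1042 with both compounds.

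The difference kept its call in all 23 alternatives for B430306N03Rik, Asb2 and Il10 and in all 22 for Jag1. It was lost in 1 of 23 for Dnajb4, 7 for Txnrd1, 7 for Slc7a11, 8 for Ednrb, 11 for Ndrg1, 11 for Pim2 and in 13 of 22 for Nanos1, with a highest adjusted p of 0.192, in Pim2. The direction was the same in every alternative run for these 11 genes.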

How the results depend on the processing

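Against 11 genes higher and 0 lower, limma gave 17 and 1 with quantile normalisation, 17 higher with the length and GC trend removed, 27 and 4 with only the 6 libraries compared, and 823 and 1026 with array weights (805 and 1012 with the 6 libraries). Those weights rested on unstimulated library a (8.37) and C-178 library 3 (4.568), by far the highest. DESeq2 called 34 and 4, and edgeR called 1 lower. Leaving out 1 library gave 4 to 24 higher and 0 to 5 lower. Leaving out libraries of the groups outside the comparison was chosen after seeing the data. Of the 11 genes, 8 to 10 were called with CMA when 1 library was left out. The number whose effect differed, 4, was 2 with no filter, 7 with array weights and 1 to 7 without 1 library. The median was 0.23 to 0.32 for NRF2 targets, -0.37 to -0.28 for cholesterol synthesis and -0.25 to -0.14 for NF-κB targets without 1 library. The uncalled difference of effects changed sign for Hmox1 (-0.01 with the trend removed) and Gclm (0.08 with quantile normalisation, 0.47 with the trend removed). The cause of these shifts was not tested. No paired analysis was possible because the unstimulated columns carry only the number 1 unambiguously. For C-178 plus CMA against CMA, limma called 9 of the 11 genes with all 12 libraries and 7 with only the 6 libraries compared. With a replicate block on those 6 libraries it called 6. Of the 9, Txnrd1 (limma adjusted p = 0.173), Gsr (0.0853) and Gclm (0.135) were not called in the fit with the block. Same-numbered libraries of that pair of groups did not deviate together (correlations -0.14, 0.18 and -0.16). These correlations cannot show whether such libraries share a culture or a batch. With 7049454 reads in the shallowest C-178 library, genes of a few counts, such as Ifnb1, cannot be compared.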

Other observations

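Spic, the transcription factor of red-pulp macrophages that handle heme, read 148, 155 and 134 normalised counts without stimulation and 216, 315 and 330 with C-178 (log2 change 0.95, not called). Fas, a death receptor, stood at 0.67 and Slc2a1, a glucose transporter, at 0.48, both uncalled. Of 24 cell cycle genes 5 lay lower without overlap (20.8%, against 7.68% of all genes) and the median was -0.11. Of 19 genes of inflammasomes and cell death, 5 lay lower (26.3%) and 1 higher without overlap (5.26%, against 7.87% of all genes), with the adaptor gene Pycard at -0.48 and Bcl2 at 0.69. Of 26 immediate early genes the median was -0.18, and -0.02 with the length and GC trend removed.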
